A study of Homo sapiens with 2 samples.

Results

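The kallikrein-related peptidases KLK5 to KLK14 are 10 genes that lie side by side on human chromosome 19q13. The array names 19775 genes by a probe set with a single symbol, 9 of these 10 among them, and KLK9 shares a probe set with KLK8. All 17 probe sets annotated to the 10 genes, of 54675 on the array, are described. The genes were listed by family and position, with earlier results of these data known. RNA came from the esophageal squamous carcinoma cell line KYSE-140 after flow sorting into CD90+ cells and CD90- cells, where CD90 is the surface glycoprotein encoded by THY1. Each population was 1 sample of total RNA on 1 Affymetrix U133 Plus 2.0 array, and both populations are of the same line, with no treatment given in the labels. With 1 array per population there is no spread between samples, no test and no p-value, so each fold below describes 2 RNA samples with no repeated sort.

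Kallikrein-related peptidases are secreted serine proteases that are made as inactive proforms and start to work when a short propeptide is cut off, often by another member of the family. In stratified squamous epithelium several of them are released by the upper cell layers, where they cut the desmosomal proteins that hold cells together and so allow shedding. Most members cut after arginine or lysine like trypsin, KLK7 cuts like chymotrypsin, and the inhibitor LEKTI, the product of SPINK5, restrains several of them.

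Values are MAS5 signals on a linear scale, and the arrays had equal 2 to 98% trimmed means, 499.9 in CD90+ and 499.9 in CD90- cells. A signal was treated as present when it reached a common floor of 71.6, the geometric mean of the medians of both arrays. Lower signals were raised to the floor before a ratio was taken, and a fold that rests on such a value is given as a lower bound. Each gene was represented by a single probe set, the brightest one outside the _x_at class, whose probes can bind other transcripts. Genes with no probe set outside that class were represented by one within it. The sorted antigen itself, THY1, read 293 in CD90+ and 78.9 in CD90- cells, which is 3.72-fold higher in the cells sorted for it. KRT5, the basal keratin of squamous epithelium, read 19357 in CD90+ and 19208 in CD90- cells. Of the fibroblast markers COL1A1 and PDGFRA reached the floor, with values given further on, while COL1A2, COL3A1, DCN, LUM and PDGFRB were under it in both populations, as was the leukocyte marker PTPRC.

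KLK5, KLK6 and KLK8 were higher in CD90+ cells, by 3.33-fold, 2.57-fold and 2.78-fold. They were the members measured by the probe set that stood for the gene, 3 of the 10, and all 3 reached the floor in both populations. The other 7 members gave no ratio under that rule: 6 were under the floor on both arrays, and KLK9 had no probe set of its own. Across the whole array 308 of 12466 measured genes were at least 2-fold higher in CD90+ cells (2.47%) and 218 were at least 2-fold lower (1.75%). None of the 3 measured members was at least 2-fold lower.

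The windows around the annotated starts of KLK5, of KLK6 and of KLK7 are shown because the first pair were higher in CD90+ cells while KLK7, the gene next to KLK6, was under the floor. Each is the RefSeq window of GRCh38.p14 from 250 bases before to 50 after the start, read on the minus strand, 5′ to 3′, in lower case. Capitals mark the letters CCGGAA on either strand (TTCCGG on the other), a form of the core bound by ETS transcription factors, a family that the published study of these cells followed. The windows are chr19:50952989-50953288 for KLK5, chr19:50969542-50969841 for KLK6 and chr19:50983868-50984167 for KLK7.
KLK5: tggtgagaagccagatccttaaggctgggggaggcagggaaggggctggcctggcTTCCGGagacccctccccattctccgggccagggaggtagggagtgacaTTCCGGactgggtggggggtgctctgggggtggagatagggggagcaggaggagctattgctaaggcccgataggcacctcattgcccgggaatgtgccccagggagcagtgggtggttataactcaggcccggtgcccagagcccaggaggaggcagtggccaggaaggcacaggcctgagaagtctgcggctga
KLK6: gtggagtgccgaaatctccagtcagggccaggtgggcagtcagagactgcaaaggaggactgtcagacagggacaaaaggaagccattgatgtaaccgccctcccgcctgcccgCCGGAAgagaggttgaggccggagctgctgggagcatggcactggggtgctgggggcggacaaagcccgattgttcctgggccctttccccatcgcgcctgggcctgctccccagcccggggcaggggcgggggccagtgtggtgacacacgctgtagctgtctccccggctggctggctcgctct
KLK7: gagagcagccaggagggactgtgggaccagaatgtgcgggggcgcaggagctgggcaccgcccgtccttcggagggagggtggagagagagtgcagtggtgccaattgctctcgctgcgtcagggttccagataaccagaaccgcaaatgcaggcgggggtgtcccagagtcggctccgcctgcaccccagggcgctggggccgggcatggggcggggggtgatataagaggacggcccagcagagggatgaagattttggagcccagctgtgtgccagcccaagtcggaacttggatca
The KLK5 window held CCGGAA at 2 places, which begin at positions -195 and -146 from the start, and the KLK6 window held it once, at -136. None of the 3 windows of KLK7 had a match. Of all 35116 windows in the table, 17.2% held at least 1 match and 4.23% held 2 or more. Windows were matched for 9 of the 10 members, 16 windows in all because some genes have several starts, and KLK8 was not among them. CCGGAA was in 6 of these 16 member windows, which belong to 5 of the 9 genes. They included KLK10, KLK12 and KLK13, whose standing probe sets were under the floor. Windows of the same gene can overlap, and both KLK13 windows hold the same CCGGAA site, so the 16 windows are not separate sequences. None of the CCGGAA matches in member windows overlapped a match to the other motifs searched on both strands, which were the AP-1 letters TGANTCA, the GC box GGGCGG and the TATA letters TATAAA. The AP-1 and TATA letters were in 0 of the 16 member windows, against 7.71% and 11.5% of all windows, and GGGCGG was in 10 of 16, against 45.0%. These matches describe the letters in the windows and say nothing of which factor was bound.

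KLK5 encodes a trypsin-like protease that can activate itself and the proform of KLK7, and it stands at the head of the shedding cascade in skin. Its 1 probe set, of the _s_at class that can match several transcripts, read 275 in CD90+ cells and 82.4 in CD90- cells, and with that class left out KLK5 has no value. The CD90+ signal was 3.84 times the floor and the CD90- signal 1.15 times, so the CD90- side was barely above it. The log2 ratio was 1.74, and KLK5 was number 74 from the top among the 12466 measured genes.

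KLK6, also called neurosin, is a trypsin-like protease abundant in the nervous system and found in many carcinomas. Its 1 probe set belongs to the class designed against a single gene and read 355 in CD90+ and 138 in CD90- cells. Both sides were clear of the floor, at 4.96 times it in CD90+ and 1.93 times in CD90- cells. The log2 ratio was 1.36 and the gene was number 143 from the top.

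KLK8, or neuropsin, is a trypsin-like protease of epidermis and brain. The brighter of its 2 probe sets, also of the _s_at class, gave 331 in CD90+ cells against 119 in CD90- cells, a log2 ratio of 1.48 and number 114 from the top. The second, of the _a_at class, read 75.9 in CD90+ and 10.3 in CD90- cells. That second probe set was just over the floor in CD90+ cells and far under it in CD90- cells, so its fold was at least 1.06. Another probe set, annotated to both KLK8 and KLK9, read 91.7 in CD90+ and 60.1 in CD90- cells, at least 1.28-fold higher. Both dimmer probe sets reached the floor in CD90+ cells only, so their ratios after the floor could only be upward and add no support. The 2-fold KLK8 difference rests on the brighter probe set alone.

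**Figure D1:**
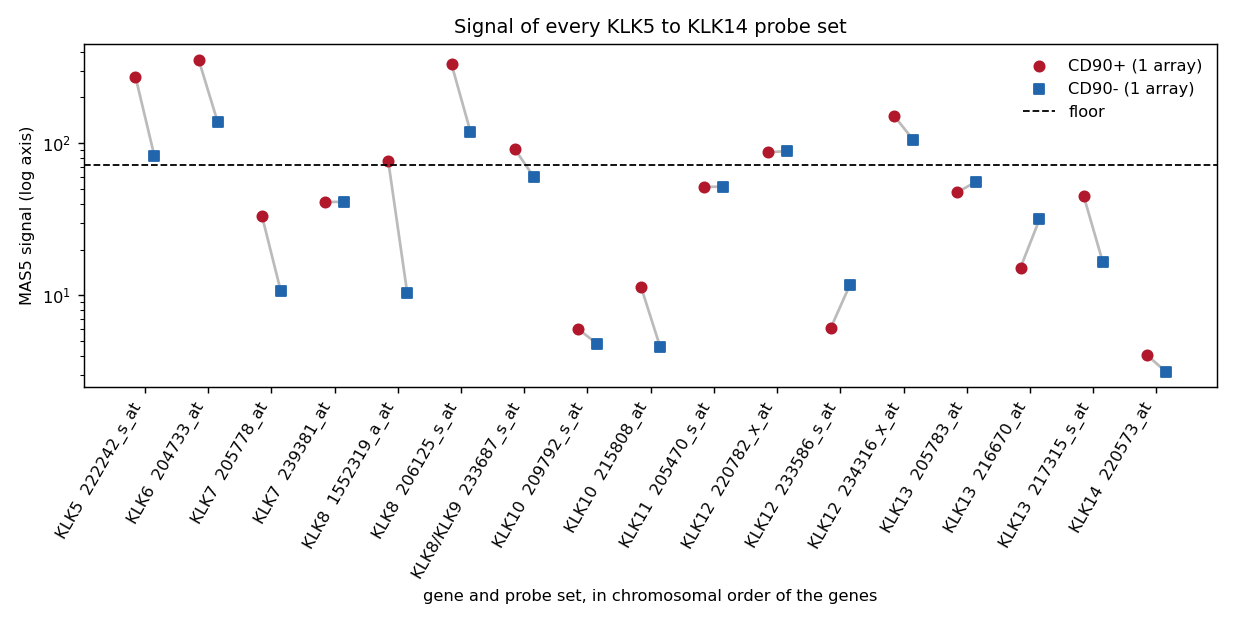
MAS5 signal (log axis) of each of the 17 probe sets of KLK5 to KLK14, in chromosomal order of the genes, with CD90+ as red circles and CD90- as blue squares (1 array each) and the floor of 71.6 as a dashed line. KLK5, KLK6 and the brighter KLK8 probe set lie above the floor on both arrays with CD90+ higher, and 10 probe sets lie under the floor on both.

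How far these 3 ratios stand out depends on how bright the genes are, since the spread of ratios differs between classes of signal. Among 2456 genes with a geometric mean signal of 100 to 300 whose signals reached the floor in both populations, a class chosen after their values were seen that holds all 3 members, 5.01% were at least 2-fold higher in CD90+ cells and 3.26% at least 2-fold lower. Among the 750 genes with mean signals of 128 to 181, the central 95% of log2 ratios ended at 1.27, below the 1.74 of KLK5. Among the 828 genes from 181 to 256 it ended at 1.48. The ratios of KLK6 (1.36) and KLK8 (1.48) were inside that range, KLK8 at its edge. Both ranges hold only genes at or above the floor in both populations, which leaves out larger ratios whose lower side was under it. The 1.74 of KLK5 was thus set against a range that the floor cuts short.

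All 3 genes were dim, and a floor set at the 75th percentile (397) would leave none of them measured. The 3 ratios were close to each other. KLK5 exceeded KLK6 by 0.38 on the log2 scale and KLK8 by 0.26, and KLK8 exceeded KLK6 by 0.12. The only repeated measurement on these arrays is the agreement of different probe sets of the same gene. The SD of log2 ratios within a gene, pooled over genes, was 0.40 in 771 dim genes (no probe set over 4 times the floor) and 0.34 in 2125 genes from 4 to 16 times the floor. This SD is that of a single probe set's ratio after the floor, and a difference between the ratios of different genes varies more. The differences among KLK5, KLK6 and KLK8 were all below the wider SD, so their order is not established. How much repeated sorts would differ is not part of this SD. The median log2 ratio of the 3 was 1.48, beside 0.010 over all 12466 measured genes; both describe genes that passed the floor.

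**Figure D2:**
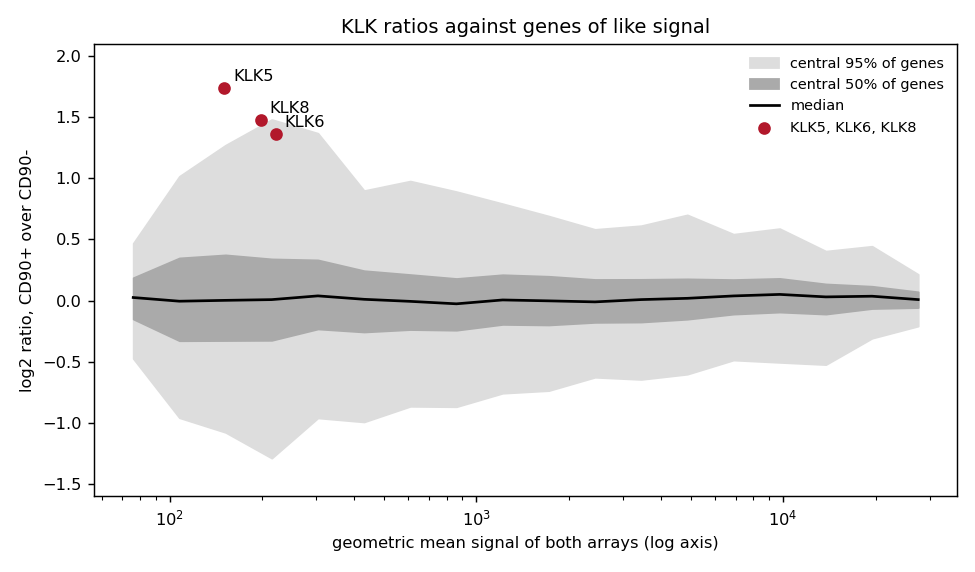
Log2 ratio of CD90+ over CD90- against the geometric mean signal of both arrays (log axis), with the median, central 50% and central 95% of genes that reached the floor in both populations, in classes of signal. KLK5 lies above the central 95% of these genes at like signal, a range cut short by the floor. KLK8 lies close to the upper edge of that range, which is drawn by joining the classes, and KLK6 lies just inside it.

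KLK7, the chymotrypsin-like partner of KLK5 in shedding, was under the floor on both of its probe sets. The brighter probe set gave 41.1 in CD90+ cells and 41.2 in CD90- cells. The other read 33.4 in CD90+ and 10.6 in CD90- cells. Neither reached the floor in either population, so no fold is given and a KLK7 difference was not detectable at this signal.

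The members beyond KLK9 gave little signal. KLK10, first described as a gene of normal epithelial cells that is often silent in tumours, read 11.3 and 6.03 in CD90+ cells and 4.58 and 4.79 in CD90- cells on its 2 probe sets. KLK11, a trypsin-like member, read 51.7 in CD90+ and 51.8 in CD90- cells. KLK13, another trypsin-like member, read 47.6, 15.2 and 44.8 in CD90+ cells and 56.0, 31.6 and 16.6 in CD90- cells, and its 3 probe sets did not share a direction. KLK14, a strongly trypsin-like enzyme that can activate the KLK5 proform, read 4.05 in CD90+ and 3.14 in CD90- cells. All of these are under the floor, where MAS5 values carry no usable order. Over the 10 probe sets under the floor on both arrays, signals ran from 4.05 to 51.7 in CD90+ and from 3.14 to 56.0 in CD90- cells, and 5 of the 10 had the larger value in CD90+ cells.

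KLK12 had probe sets that disagreed on whether the gene gave signal at all. The 1 outside the cross-hybridising class read 6.11 in CD90+ and 11.7 in CD90- cells. The 2 of the _x_at class were above the floor on both arrays, the first at 151 in CD90+ and 106 in CD90- cells (1.43-fold) and the second at 87.2 in CD90+ and 88.7 in CD90- cells. No KLK12 probe set differed by 2-fold while above the floor, and the signal of the _x_at class cannot be credited to KLK12 alone.

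KLK5, KLK6 and KLK8 lie near each other in the cluster. Most other kallikreins gave no ratio, so whether higher genes are grouped there cannot be judged. In chromosomal order KLK5, KLK6, KLK7 and KLK8 follow one another among the protein-coding genes, with KLK7 the member under the floor. On the other side of KLK5 the nearest kallikrein is KLK4, an enamel and prostate protease. The probe set that stood for it gave 64.6 in CD90+ cells against 86.4 in CD90- cells, a log2 ratio of -0.27 after the floor. Another KLK4 probe set read 23.2 in CD90+ and 116 in CD90- cells, at least 1.62-fold lower in CD90+ cells. KLK1, the tissue kallikrein that releases kinins, is at the far end of the cluster and gave 130 in CD90+ cells against 104 in CD90- cells, a log2 ratio of 0.32. KLK2, KLK3 and KLK15 were under the floor on the probe sets that stood for them, so KLK1 and KLK4 were the 2 measured among these other 5 kallikreins. KLK1 was within 2-fold. The KLK4 ratio is a bound that could not reach 2-fold, since its CD90- signal was so near the floor. KLK3, which encodes prostate-specific antigen, had a brighter probe set of the _x_at class at 339 in CD90+ and 389 in CD90- cells, next to 10.04 in CD90+ and 8.51 in CD90- cells on the probe set that stood for it.

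Measured genes flanking the cluster were within 2-fold after the floor. Of the 15 nearest annotated genes on each side, 10 in all had a probe set and 4 were measured, with 0 beyond 2-fold. Among these 4, SYT3 read 50.9 in CD90+ and 93.3 in CD90- cells, so its ratio is a bound that could not reach 2-fold. The brightest were CLEC11A, a secreted growth factor of the lectin family, at 328 in CD90+ and 291 in CD90- cells, and ACP4, an acid phosphatase, at 161 in CD90+ and 164 in CD90- cells on a probe set of the _x_at class. A wider view, chosen after the values were seen, took the 10 nearest genes on each side that reached the floor on both arrays. Their log2 ratios ran from -0.50 to 0.44 with a median of 0.14, and 0 of the 20 were beyond 2-fold. Few genes pass 2-fold anywhere on the array: 2.47% of measured genes upward in CD90+ cells and 1.75% downward. With shares this low, 0 of 4 and 0 of 20 do not set the flanks apart from other genes. KLK5, KLK6 and KLK8 were all above the highest of those 20 ratios, but they were already known to be beyond 2-fold when the 20 were chosen.

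**Figure D3:**
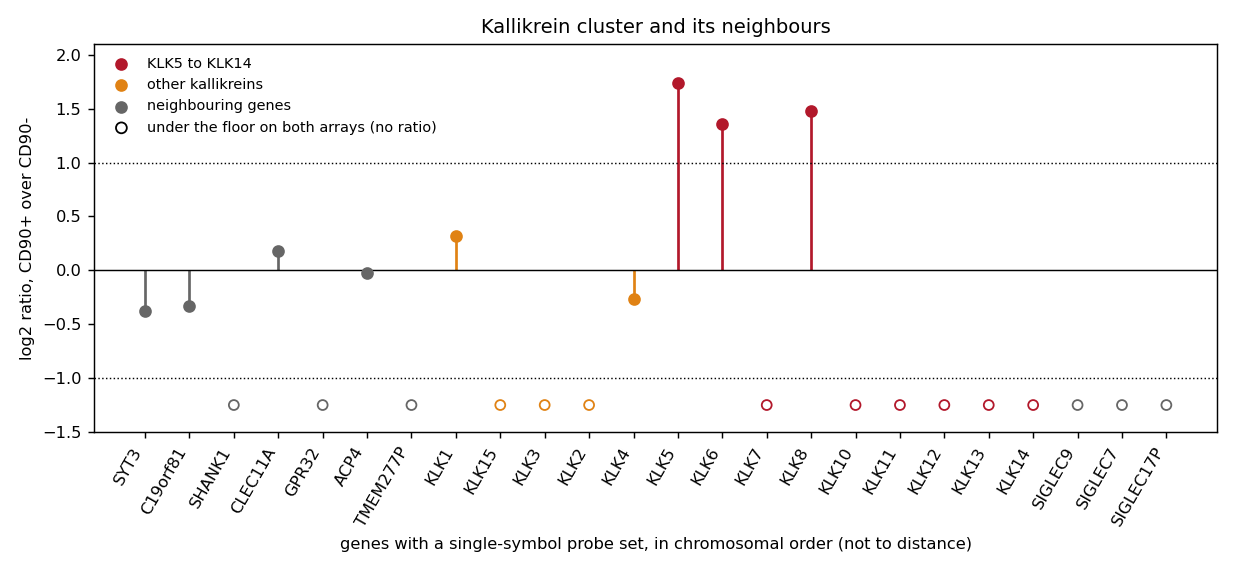
Log2 ratio of CD90+ over CD90- for the kallikrein cluster and its neighbours on chromosome 19, in gene order and not to distance; dotted lines mark 2-fold, and open circles at the bottom are genes under the floor on both arrays, which have no ratio. KLK5, KLK6 and KLK8 lie above the upper 2-fold line, and the measured neighbours outside the cluster lie between -0.38 and 0.18.

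Known inhibitors of these proteases gave no measurable signal by the probe set that stood for them. Of the 12 inhibitors listed, 9 had a probe set, and all 9 were under the floor on both arrays, from 7.44 to 52.8 in CD90+ and from 7.62 to 51.5 in CD90- cells. The brightest were the broad inhibitor A2M, at 52.8 in CD90+ and 51.5 in CD90- cells, and SPINK6, a Kazal-type inhibitor of epithelium, at 49.3 in CD90+ and 48.2 in CD90- cells. The others included SPINK7, and SERPINA3 and SERPINA5, serpins known to bind kallikreins. SPINK5, SPINK9 and SERPINB6 were not analysed here. SERPINA1, or alpha-1-antitrypsin, had 1 other probe set over the floor in CD90+ cells, at 85.0 in CD90+ and 9.37 in CD90- cells, at least 1.19-fold higher.

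Activating and partner proteases were mostly alike in both populations. Of 15 listed, 9 were measured: 1 was at least 2-fold higher in CD90+ cells, 1 at least 2-fold lower and 7 lay between. Over all measured genes the shares were 2.47% higher and 1.75% lower. The median log2 ratio of the 9 was 0.20, beside 0.010 over all measured genes. PLAU, the urokinase plasminogen activator, was 3.19-fold higher on its brighter probe set (632 in CD90+ and 198 in CD90- cells), and its other probe set was under the floor. TMPRSS11D, an airway and esophageal trypsin-like protease of the cell surface, was 2.93-fold lower (421 in CD90+ and 1233 in CD90- cells). Among those between, matriptase (ST14), which can activate kallikrein proforms, read 1276 in CD90+ and 1263 in CD90- cells. Prostasin (PRSS8), a membrane-anchored partner of matriptase, read 292 in CD90+ and 177 in CD90- cells.

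Of the substrates and protease-sensing receptors, FLG was the 1 gene beyond 2-fold on the probe set that stood for it. Of 17 listed, 7 were measured, 6 lay between and the median log2 ratio was 0.13. Over all measured genes 2.47% were at least 2-fold higher in CD90+ cells. FLG encodes profilaggrin, whose breakdown in the cornified layer involves KLK5, and it was at least 5.75-fold higher in CD90+ cells (412 in CD90+ and 32.8 in CD90- cells, the second under the floor). The desmosomal cadherins that these enzymes cut in epidermis, DSG1 and DSC1, and corneodesmosin (CDSN) were under the floor in both populations. The cadherins of lower layers were bright and differed by less than 2-fold: DSG3 read 2898 in CD90+ and 2036 in CD90- cells, DSC3 read 3310 in CD90+ and 4267 in CD90- cells, and DSG2 read 10865 in CD90+ and 10183 in CD90- cells. Interleukin-1 beta (IL1B), a substrate of several serine proteases, read 131 in CD90+ and 86.1 in CD90- cells. Fibronectin (FN1) was under the floor on the probe set that stood for it, but 3 of its 7 probe sets, all of the _x_at class, reached the floor in 1 population and did not share a direction. They read 151 in CD90+ and 20.9 in CD90- cells (at least 2.11-fold higher), 81.1 in CD90+ and 7.53 in CD90- cells, and 21.6 in CD90+ and 79.2 in CD90- cells. The thrombin receptor F2R was over the floor only on an _x_at probe set, at 231 in CD90+ and 186 in CD90- cells.

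Transcription factors linked to kallikrein expression included 2 genes that were lower in CD90+ cells. Of 14 listed, 11 were measured, 0 were at least 2-fold higher, 2 at least 2-fold lower and 9 between, with a median log2 ratio of -0.16. Both lower genes were grainyhead factors of epithelial differentiation: GRHL1 read 489 in CD90+ and 1180 in CD90- cells (2.42-fold lower), and GRHL3 read 321 in CD90+ and 670 in CD90- cells (2.09-fold lower). GRHL1 had a second probe set that was under the floor in both populations, and GRHL3 had 1 probe set, whose log2 ratio was -0.75 with the floor at 397. The nuclear receptors VDR (1200 in CD90+ and 1023 in CD90- cells), RXRA (1788 in CD90+ and 1229 in CD90- cells) and NR3C1 (2984 in CD90+ and 2514 in CD90- cells) differed by less than 2-fold.

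Measured genes on the late squamous differentiation list were lower in CD90+ cells or differed by less than 2-fold. FLG is also a protein of the cornified layer but was listed above as a substrate. It was higher in CD90+ cells like KLK5, KLK6 and KLK8, with its CD90- signal under the floor, and the SPRR genes were lower. Of 14 genes in the differentiation list, 12 had a probe set and 6 were measured, with a median log2 ratio of -1.34. Of the 6, 0 were at least 2-fold higher in CD90+ cells and 3 at least 2-fold lower, beside 2.47% and 1.75% of measured genes. The 3 were the cornified envelope precursors SPRR1B (14.6-fold lower), SPRR3 (at least 6.56-fold lower) and SPRR1A (at least 4.65-fold lower), close relatives in one gene cluster whose probe sets are not independent. KRT13, a keratin of the upper layers of esophageal epithelium, read 563 in CD90+ and 552 in CD90- cells, and CNFN, or cornifelin, 225 in CD90+ and 209 in CD90- cells. Involucrin (IVL), loricrin (LORICRIN) and KRT4 were under the floor in both. The summed signal of the 12 genes was 8114 in CD90+ and 16052 in CD90- cells. Most of it came from KRT10 (6834 in CD90+ and 9463 in CD90- cells) and SPRR1B (329 in CD90+ and 4818 in CD90- cells). The part of cell differentiation state in the kallikrein ratios was not tested, and in RNA of pooled cells more cells with a transcript and more transcript per cell cannot be told apart. The 6 measured squamous epithelial markers, which include KRT5 and the transcription factor SOX2 (23329 in CD90+ and 27407 in CD90- cells), had 0 members beyond 2-fold, a median log2 ratio of -0.11 and a summed signal of 56517 in CD90+ and 59693 in CD90- cells.

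Markers of other cell types were few. Of 7 fibroblast markers 2 were measured and 0 were beyond 2-fold, with a summed signal of 2391 in CD90+ and 1471 in CD90- cells, most of it from COL1A1 (2125 in CD90+ and 1240 in CD90- cells). The log2 ratio of COL1A1, 0.78, was above the 0.69 that ended the central 95% of genes of like signal. PDGFRA read 107 in CD90+ and 107 in CD90- cells. Of 4 leukocyte markers with a probe set 1 was measured, ITGAM (72.4 in CD90+ and 35.1 in CD90- cells), with a summed signal of 111 in CD90+ and 141 in CD90- cells. Of 4 endothelial markers 1 was measured, PECAM1 (98.5 in CD90+ and 70.9 in CD90- cells), with a summed signal of 155 in CD90+ and 102 in CD90- cells. COL1A1 and PDGFRA were within 2-fold. For ITGAM and PECAM1 the CD90- signal was under the floor, so their folds, at least 1.01 and at least 1.38, are lower bounds. With CD90+ signals this near the floor, neither could reach 2-fold, and a larger difference could not be seen. The part of these cell types in the kallikrein ratios was not tested.

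**Figure D4:**
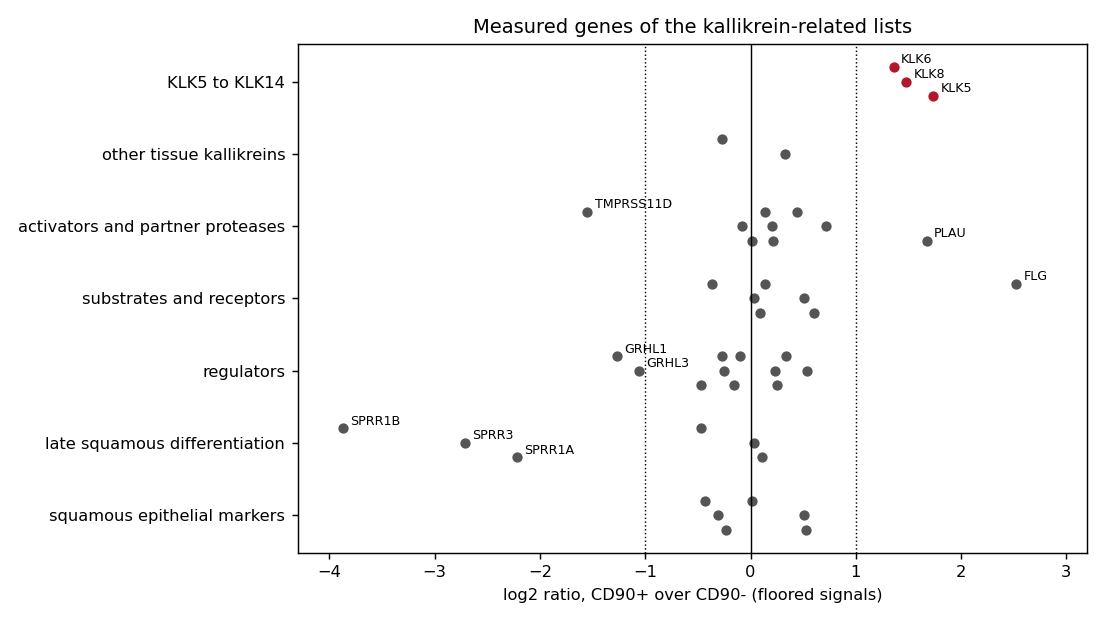
Log2 ratio of CD90+ over CD90- after the floor for each measured gene of 7 lists, 1 point per gene, with dotted lines at 2-fold and names for genes beyond it. KLK5, KLK6 and KLK8 lie to the right of the upper line, while SPRR1A, SPRR1B and SPRR3 of the late differentiation list lie to the left of the lower line.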

How the data were processed

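Biotin-labelled total RNA of 1 CD90+ and 1 CD90- sample was measured on 1-colour arrays. The deposited values are linear signal intensities that the authors made with MAS5, per the submitters' processing notes, with a version not given in the sources used here. MAS5 takes mismatch from perfect-match probe signal, and dim probe sets therefore have unsteady ratios. The number of arrays limits the precision. Gene symbols came from the platform annotation and were updated by gene identifier from RefSeq GRCh38.p14. Of the probe sets 41091 had 1 symbol, 1801 several and 11721 none, beside 62 control probe sets that were left out. Gene order came from the same table. The cell population label gave the groups. The floor, probe set rule and 2-fold threshold are those of the report, and computations used Python 3.11.15, numpy 2.4.6 and pandas 2.3.3. The code was run on simulated data with changes larger than those of KLK5, KLK6 and KLK8, in genes of higher mean signal. That run does not cover genes as dim as these. The members and lists were chosen with earlier results of these data known. In each list the text gives values for members beyond 2-fold or else the 2 brightest, and other members it names were chosen after their values were seen. No gene was named for likeness to a member, since with 2 arrays a pattern is 1 ratio. A total of 8 alternatives were tried: other floors, normalizations and probe set rules.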

Additional observations from a re-analysis of the deposited data

How the results depend on the processing

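No paired analysis was possible because each population has 1 array, and no replicate could be left out. Under the 2 other normalizations the log2 ratios of KLK5 were 1.74 and 1.75 and those of KLK6 1.36 and 1.37; other floors below their signals and other probe set rules could not alter them, since each has 1 probe set. KLK8 fell under 2-fold by the mean of its measured probe sets (log2 ratio 0.78) and by the one with the smallest change (0.083), since its second probe set is held at the floor in CD90- cells. With the floor at the 75th percentile (397) 0 members were measured and so 0 were higher. With it at the 25th percentile (17.2) 6 were measured, the same 3 and KLK7, KLK11 and KLK13, at log2 ratios of -0.0023, -0.0017 and -0.23, and the median was 0.68. The median was 1.07 by the mean of probe sets and 0.72 by the smallest change, both of which also measured KLK12. Without probe sets of the _x_at, _s_at or _a_at class 1 member was measured, KLK6, and it was higher. Over all genes, 541 were higher and 381 lower without a floor, 1122 and 835 with the lower floor, 89 and 66 with the higher floor, and 143 were lower by the smallest change. Of 136 values for 19 genes of the other lists under the alternatives, 122 moved by less than the probe set SD of their brightness class. A further 14 moved by more, and none of the values beyond 2-fold turned the other way. Many of the 122 could not move, since some alternatives leave a gene with 1 probe set or with both signals above the floor unchanged. The higher floor left a value for 10 of the 19 genes. With the higher floor PLAU (log2 ratio 0.67), FLG (0.052), GRHL3 (-0.75) and SPRR3 (-0.24) were within 2-fold, as was SPRR3 by the smallest change (-0.42), while ITGAM reached 1.05 with the lower floor or none. Signals near the floor limit every kallikrein value here.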
